A study of Mus musculus with 31 samples.

Results

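The neurotrophins and their receptors were followed in laser-microdissected olfactory and trigeminal nerves of mouse embryos through 7 genes: the receptor genes Ngfr, Ntrk2 and Ntrk3, the co-receptor gene Sort1, and the ligand genes Bdnf, Ntf3 and Ntf5. They were taken by gene symbol from a count table of 47729 genes, all 7 were found, and all 7 passed the filter on low counts that left 19332 genes for testing. Nerve pieces were cut from cryosections of Sox10:H2BVenus BAC transgenic embryos, in which neural crest-derived glia carry a nuclear fluorescent protein, and tissue from several sections was pooled for each library. The olfactory nerve was cut from the connective tissue under the olfactory epithelium at E11.5 (4 libraries), E13.5 (7) and E16.5 (4), and the olfactory nerve layer (ONL) on the surface of the olfactory bulb at E13.5 (5). At E16.5 the ONL was taken as an outer part, furthest from the bulb (4), and an inner part, nearest to it (4), beside branches of the trigeminal nerve (3). Every group carried the same transgene and none was treated. The cut pieces hold axons, vessels and connective tissue as well as olfactory ensheathing cells (OECs) or Schwann cells, and the split into inner and outer ONL follows anatomical position only.

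Neurotrophins are secreted growth factors that support survival, axon growth and myelination. BDNF and neurotrophin-4 (the product of Ntf5) signal through the tyrosine kinase receptor TrkB (Ntrk2), and neurotrophin-3 (Ntf3) mainly through TrkC (Ntrk3). The p75 receptor (Ngfr) binds all neurotrophins, pairs with sortilin (Sort1) to bind the unprocessed proneurotrophins, and has long been used as a marker of immature Schwann cells and of OECs in culture. Ntrk2 and Ntrk3 also give truncated receptors without a kinase, and glia often make truncated TrkB. Counts per gene do not separate these forms.

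At the earlier stages the labels of 10 of the 31 libraries went against the groups. The group means tabulated with the study were taken over other libraries than the labels name. The E13.5 ONL group was set as all 4 libraries with an E11.5 nerve label and the first replicate with an E13.5 nerve label. The E13.5 nerve group was set as the other 6 with that label and the first replicate labelled E13.5 ONL, and the E11.5 nerve group as the 4 that remained of the E13.5 ONL label. In this setting 100% of the 1506 to 1512 genes compared lay within 1% of the tabulated means. By label the share was 1.80% for E11.5 nerve, 16.2% for E13.5 nerve and 2.32% for E13.5 ONL. Tbr1, a gene of olfactory bulb neurons, which border the ONL, stood at 208 to 346 CPM (counts scaled to library size) in the 5 libraries set as E13.5 ONL and at 0.0584 to 7.59 in the other 11 early ones. The groups below follow the tabulated means, and values by label stand beside the early fold changes and levels. Orders of group means, marker sums and plots use these groups only. The E16.5 groups are the same either way.

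Libraries held 3512627 to 36705535 counts on genes, so that 3 counts correspond to 0.0795 to 0.830 CPM, which is taken as the floor of detection and covers counting error only. Glial marker genes (Sox10, Fabp7, Erbb3) were present in every group, and their summed level ran from 402 CPM in an E13.5 nerve library to 26851 in an outer ONL library. The sum did not follow Sox10: on average Sox10 made up 646 of 19789 CPM in outer ONL and 335 of 623 in trigeminal nerve. Levels are CPM after TMM scaling, which corrects each library for its composition, with the mean ± SD over libraries. A gene is called higher or lower at an adjusted p under 0.05 in the quasi-likelihood test of edgeR, adjusted over all genes tested by Benjamini-Hochberg. Per the study, each early group held more libraries than embryos, with the fewest embryos at E11.5. At E16.5 the trigeminal and olfactory pieces came from shared sections. The p-values therefore measure the spread between nerve pieces, and those of the early groups, steps from E11.5 included, rest on fewer animals than libraries. In bulk pieces, fewer cells of a type and less RNA per cell cannot be told apart.

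In GRCm38 coordinates, Ngfr (ENSMUSG00000000120) lies at chr11:95568818-95587735 on the minus strand, Ntrk2 (ENSMUSG00000055254) at chr13:58806569-59133970 on the plus strand and Ntrk3 (ENSMUSG00000059146) at chr7:78175959-78738012 on the minus strand. Sort1 (ENSMUSG00000068747) lies at chr3:108284082-108361511 on the plus strand. Of the ligand genes, Bdnf (ENSMUSG00000048482) lies at chr2:109674700-109727007 on the plus strand, Ntf3 (ENSMUSG00000049107) at chr6:126101412-126166910 on the minus strand and Ntf5 (ENSMUSG00000074121) at chr7:45413695-45417179 on the plus strand. The exons of Bdnf are overlapped over 896 bases (14.4% of their length) by the antisense gene Gm45346, and those of Sort1 over 338 bases (4.47%) by the antisense gene Gm12523. The library kit does not mark strand, so reads from these overlaps cannot be assigned to one gene. No exon of the other 5 genes is overlapped.

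The 250 bases upstream of the annotated start are shown for the receptor genes Ngfr, high in trigeminal nerve, and Ntrk2, with the largest change between stages, and for the 1 Bdnf start whose window holds the core letters bound by Sox proteins, to which Sox10 belongs. The RefSeq table (GRCm38.p6) holds 11 such windows for 4 of the 7 genes: 7 for Bdnf, 2 for Ntf3, and 1 each for Ngfr and Ntrk2. ACAAAG or its complement CTTTGT was found in 1 of the 11, and in 16.46% of all 32851 windows of that length in the table. The match is in capitals.
Ngfr, chr11:95587699-95587948, minus strand: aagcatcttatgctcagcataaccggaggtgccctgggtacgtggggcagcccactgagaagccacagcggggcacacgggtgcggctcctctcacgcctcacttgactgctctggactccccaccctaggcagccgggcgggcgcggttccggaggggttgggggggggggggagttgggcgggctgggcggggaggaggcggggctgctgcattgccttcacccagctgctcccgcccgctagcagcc
Ntrk2, chr13:58806319-58806568, plus strand: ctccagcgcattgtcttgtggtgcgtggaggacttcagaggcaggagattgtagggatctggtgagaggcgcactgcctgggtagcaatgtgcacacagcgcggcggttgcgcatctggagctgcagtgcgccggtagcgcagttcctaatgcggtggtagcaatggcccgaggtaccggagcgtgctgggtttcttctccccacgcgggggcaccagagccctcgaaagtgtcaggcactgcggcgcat
Bdnf, chr2:109692186-109692435, plus strand: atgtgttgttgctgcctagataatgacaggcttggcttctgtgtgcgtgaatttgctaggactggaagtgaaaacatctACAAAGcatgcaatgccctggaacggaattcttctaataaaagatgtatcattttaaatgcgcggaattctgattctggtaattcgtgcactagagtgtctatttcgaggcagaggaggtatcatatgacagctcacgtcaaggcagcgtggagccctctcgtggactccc
A match describes the letters and is not a binding site. Bdnf has several alternative starts joined to a common coding exon, and counts per gene do not tell which start was used.

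**Figure D1:**
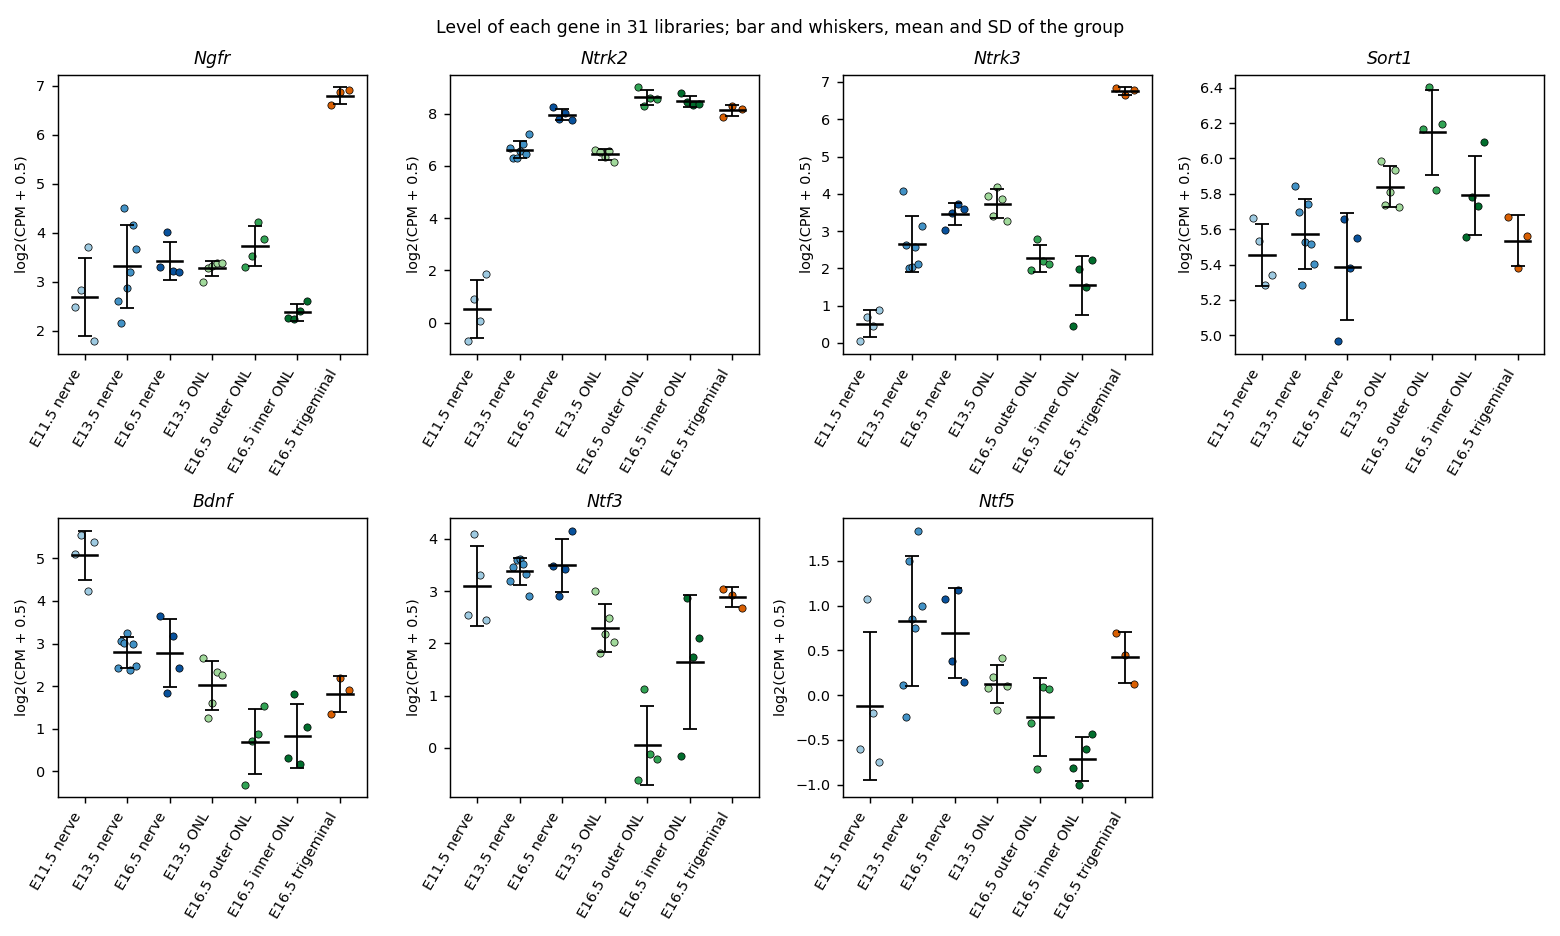
Level of each of the 7 genes in the 31 libraries on a log2(CPM + 0.5) scale, by group (blue, olfactory nerve by stage; green, ONL; orange, trigeminal nerve), with points for libraries, the line for the group mean and whiskers for 1 SD. Ngfr and Ntrk3 stand highest in the 3 trigeminal libraries, Ntrk2 lies near 0 in E11.5 nerve, where Bdnf is highest, and Ntf3 is lowest in outer ONL.

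Ngfr was abundant only in the trigeminal nerve among the 7 groups. The 3 trigeminal libraries held 96.3, 117 and 119.9 CPM. The outer ONL libraries held 9.36, 11.1, 18.1 and 14.0 CPM, the E16.5 olfactory nerve libraries 9.34, 15.6, 8.78 and 8.69, and the inner ONL libraries 4.30, 4.21, 4.79 and 5.61. The trigeminal group did not overlap any other, and the inner ONL lay below every outer ONL and E16.5 nerve library. Ngfr was 8.44-fold lower in outer ONL than in trigeminal nerve (log2 fold change -3.08 ± 0.42 SE, adjusted p = 1.05e-06) and 10.5-fold lower in E16.5 olfactory nerve (-3.39 ± 0.42, adjusted p = 3.55e-07).

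Among the E16.5 olfactory groups Ngfr was lowest in inner ONL. Outer ONL and E16.5 nerve differed by 0.31 ± 0.38 on the log2 scale (adjusted p = 0.635), and inner ONL was 2.78-fold lower than outer ONL (-1.47 ± 0.39, adjusted p = 0.00933). At the earlier stages the level was 6.78 ± 4.09 CPM in E11.5 nerve (n = 4), 10.98 ± 6.66 in E13.5 nerve (n = 7), against 9.21 ± 1.02 in E13.5 ONL (n = 5). By label these are 9.04 ± 1.09, 10.6 ± 6.65 and 7.86 ± 4.29 CPM. The step from E11.5 to E13.5 nerve, 0.71 ± 0.34, did not pass (adjusted p = 0.105), nor did it by label (0.24, adjusted p = 0.726), but passed at 1.18 (adjusted p = 0.0125) without the library labelled E13.5 ONL replicate 4 and at 0.85 (adjusted p = 0.0458) without that labelled E13.5 olfactory nerve replicate 3. In the order of group means only the first step, from trigeminal nerve to outer ONL, was larger than its error allowed for: none of the 5 neighbouring pairs below it differed, with adjusted p from 0.303 to 0.913.

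Myelin genes of Schwann cells moved with the trigeminal result. Mbp, Prx and Pmp22 were detected in every group, and their summed level was 2499.9 to 3709 CPM in the trigeminal libraries against 49.7 to 482 elsewhere. Each of the 3 was higher on average in trigeminal nerve than in E16.5 olfactory nerve and outer ONL. The mesenchyme list (Pdgfra, Col1a1, Prrx1, Twist1) summed to 2660 to 4186 CPM in trigeminal nerve, 1444 to 2529 in E16.5 olfactory nerve and 342 to 1358 in outer ONL, and its members did not move together. On average Col1a1 (2942 against 1536 CPM) and Prrx1 (170.4 against 87.6) were higher in trigeminal than in olfactory nerve, while Pdgfra (196 against 289.8) and Twist1 (4.82 against 6.43) were lower. The part of these genes' cells in the Ngfr difference was not tested.

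The ratio of Ngfr to Sox10, the transcription factor present in both OECs and Schwann cells, separated all 3 nerve types at E16.5. Between outer ONL and olfactory nerve Ngfr itself was not called in edgeR's test (0.31 ± 0.38, adjusted p = 0.635). Of the 2 genes, Sox10 had the larger difference there. By edgeR's test Sox10 was 5.13-fold higher in outer ONL than in olfactory nerve (2.36 ± 0.27, adjusted p = 1.32e-07). The log2 ratio of Ngfr to Sox10, with 0.5 CPM added to each, was -1.59 ± 0.23 in trigeminal nerve (n = 3), -3.51 ± 0.17 in olfactory nerve (n = 4) and -5.60 ± 0.47 in outer ONL (n = 4). The ranges did not overlap. The difference was -2.095 between outer ONL and olfactory nerve, -4.01 between outer ONL and trigeminal nerve and -1.92 between olfactory and trigeminal nerve, first minus second, each with p = 0.0286 in a two-sided exact permutation test, raw and adjusted over the 3 tests, the smallest p that so few libraries allow. In the other groups, for which no test was made, the ratio was -6.69 ± 0.35 in inner ONL, -2.48 ± 0.56 in E13.5 nerve, -3.78 ± 0.50 in E13.5 ONL and -5.62 ± 0.72 in E11.5 nerve. By label the last 3 are -2.72 ± 0.92, -5.05 ± 1.42 and -3.62 ± 0.41. Sox10 itself ran from 57.4 ± 18.1 CPM in E13.5 nerve to 646 ± 61.0 in outer ONL. Across all 31 libraries Ngfr and Sox10 had r = 0.12 (Pearson, log2 CPM; the libraries share groups and cell mixtures).

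**Figure D2:**
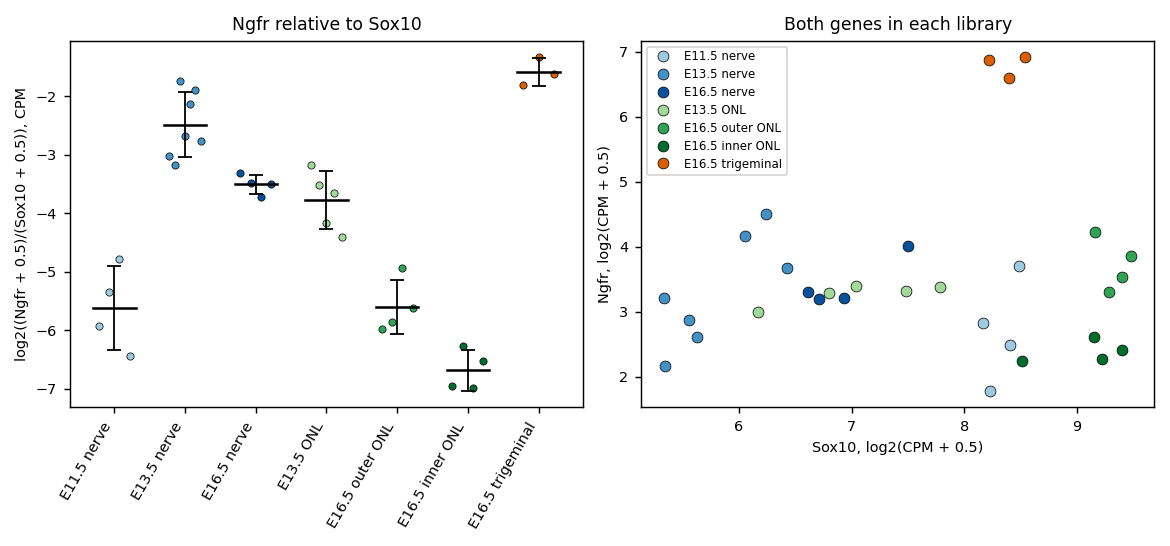
Left, the log2 ratio of Ngfr to Sox10 (CPM + 0.5) in each library by group, with the mean and SD; right, the levels of both genes in each library on log2(CPM + 0.5) axes. Trigeminal libraries stand apart through high Ngfr at a Sox10 level between those of the olfactory groups, and the ONL libraries at E16.5 through high Sox10.

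Ntrk2 was the most abundant of the 3 receptor genes, per kilobase of exon, in the olfactory groups from E13.5 on, and was nearly missing at E11.5. The 4 E11.5 nerve libraries held 0.106, 1.36, 0.539 and 3.17 CPM, from 4 to 98 counts. The 7 E13.5 nerve libraries ran from 77.8 to 148 CPM with a median of 93.5, and the 5 E13.5 ONL libraries held 96.8, 91.2, 80.7, 95.6 and 70.1. At E16.5 the olfactory nerve held 304, 224, 262 and 218 CPM, the outer ONL 516, 312, 391 and 381, the inner ONL 444, 344, 319.7 and 327, and the trigeminal nerve 237, 311 and 292. The E11.5 libraries lay below all others, and every E16.5 library lay above every E13.5 one.

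From E11.5 to E13.5 Ntrk2 rose 77.0-fold in the olfactory nerve (log2 fold change 6.27 ± 0.43, adjusted p = 3.44e-12). From E13.5 to E16.5 it rose 2.52-fold in the nerve (1.33 ± 0.29, adjusted p = 0.000983) and 4.61-fold from ONL to outer ONL (2.20 ± 0.33, adjusted p = 3.04e-06). By label the 3 steps are -0.036 (adjusted p = 0.986), 1.504 (adjusted p = 0.183) and 3.74 (adjusted p = 0.00331), and the levels by label are 91.1 ± 7.33 CPM in E11.5 nerve, 88.8 ± 15.2 in E13.5 nerve and 30.5 ± 65.4 in E13.5 ONL. The library labelled E13.5 ONL replicate 1 held 148 CPM and the other 4 of that label 0.106 to 3.17. Endothelial genes (Cdh5, Pecam1, Kdr, Tie1) summed to 11.2 to 84.2 CPM in E11.5 nerve, 185 to 282 in E13.5 nerve and 239 to 630 in E16.5 nerve, and mural cell genes (Pdgfrb, Rgs5, Acta2, Myh11) to 99.2 to 139, 152 to 288 and 580 to 2769. From E13.5 to E16.5 nerve the mean of Cdh5 went from 39.2 to 37.7 CPM, while those of the other 7 were higher at each later stage. In the ONL the endothelial sum was 120 to 209 CPM at E13.5 and 211 to 412 in the outer part at E16.5. The mural sum there was 55.3 to 76.6 CPM at E13.5, below every E11.5 nerve library. In outer ONL it was 197 to 390 CPM, below every E16.5 nerve library. All 8 genes were above the floor in some library of every group, and their part in the rise was not tested.

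At E16.5 the differences in Ntrk2 between regions were small beside the change over time. Outer ONL stood 1.59-fold above olfactory nerve without overlap (0.67 ± 0.34, adjusted p = 0.175). The replicate numbers of these 2 groups were taken to pair the libraries, although the correlations behind this overlapped those of differently numbered pairs. With the replicate block the difference was 0.64 and passed (adjusted p = 0.00209), as it did in a fit of the 2 groups alone (0.65, adjusted p = 0.0175). The ratio of outer ONL to trigeminal nerve was 1.43 (0.51 ± 0.37, adjusted p = 0.340). In the order of means, outer ONL, inner ONL, trigeminal nerve and E16.5 olfactory nerve did not differ from their neighbours (adjusted p from 0.487 to 0.863), nor did E13.5 nerve and ONL (adjusted p = 0.654; -1.57 by label, adjusted p = 0.188). The ONL to nerve difference changed by 0.87 ± 0.44 between E13.5 and E16.5, which did not pass (adjusted p = 0.233), or by 2.24 (adjusted p = 0.267) by label, and passed in a fit of the 4 groups alone (0.87, adjusted p = 0.0184).

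Ntrk3 was, like Ngfr, high in the trigeminal nerve. The 3 trigeminal libraries held 113, 99.1 and 111 CPM. At E16.5 the olfactory nerve libraries held 7.74, 10.7, 12.8 and 11.46 CPM, the outer ONL 3.38, 6.47, 4.06 and 3.85, and the inner ONL 0.874, 3.46, 2.36 and 4.16. The trigeminal libraries lay far above the rest, and outer ONL lay below olfactory nerve without overlap. Ntrk3 was 24.2-fold lower in outer ONL than in trigeminal nerve (-4.60 ± 0.46, adjusted p = 4.53e-09), 10.1-fold lower in olfactory nerve than in trigeminal nerve (-3.33 ± 0.43, adjusted p = 6.65e-07), and 2.40-fold lower in outer ONL than in olfactory nerve (-1.26 ± 0.40, adjusted p = 0.0223). The last call was lost without outer ONL replicate 1, 3 or 4, at adjusted p of 0.0526 to 0.0709, and with the early libraries grouped by label (-1.26, adjusted p = 0.148). The myelin sum given for Ngfr moved with the trigeminal values here too, and its part was not tested.

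Ntrk3 rose in the nerve from E11.5 to E13.5 and was lower in outer ONL at E16.5 than in ONL at E13.5. The E11.5 nerve libraries held 0.530, 1.11, 0.871 and 1.36 CPM, the E13.5 nerve libraries 3.53 to 16.2 with a median of 5.41, and the E13.5 ONL libraries 14.9, 10.1, 17.8, 14.1 and 9.10. The nerve rose 6.90-fold from E11.5 to E13.5 (2.79 ± 0.41, adjusted p = 4.13e-06), with no overlap. From E13.5 to E16.5 the nerve moved by 0.67 ± 0.34 (adjusted p = 0.146), while outer ONL at E16.5 was 2.95-fold lower than ONL at E13.5 (-1.56 ± 0.39, adjusted p = 0.00184). By label the 3 values are -1.06 (adjusted p = 0.147), 0.65 (adjusted p = 0.367) and 0.96 (adjusted p = 0.185), with levels by label of 14.2 ± 3.19, 6.77 ± 4.61 and 2.43 ± 3.29 CPM in E11.5 nerve, E13.5 nerve and E13.5 ONL.

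At E13.5 Ntrk3 was 1.96-fold higher in ONL than in nerve (0.97 ± 0.33, adjusted p = 0.0221), with overlapping ranges, and the ONL to nerve difference changed by -2.23 ± 0.52 to E16.5 (adjusted p = 0.00362). By label the 2 values are -1.58 (adjusted p = 0.0324) and 0.32 (adjusted p = 0.838). The E13.5 call was lost without any 1 of 3 of its 12 libraries, replicate 3 of the E11.5 nerve label and replicates 4 and 5 of the E13.5 nerve label (adjusted p from 0.0529 to 0.0771). Genes of olfactory bulb neurons (Tbr1, Neurod6, Eomes, Reln, Slc17a7) summed to 785 to 1091 CPM in E13.5 ONL, 41.8 to 67.2 in E13.5 nerve and 6.52 to 141 in outer ONL. The same list summed to 183 to 211 in trigeminal nerve. Eomes lay at or under the floor in every E13.5 nerve library, and the part of these cells was not tested.

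**Figure D3:**
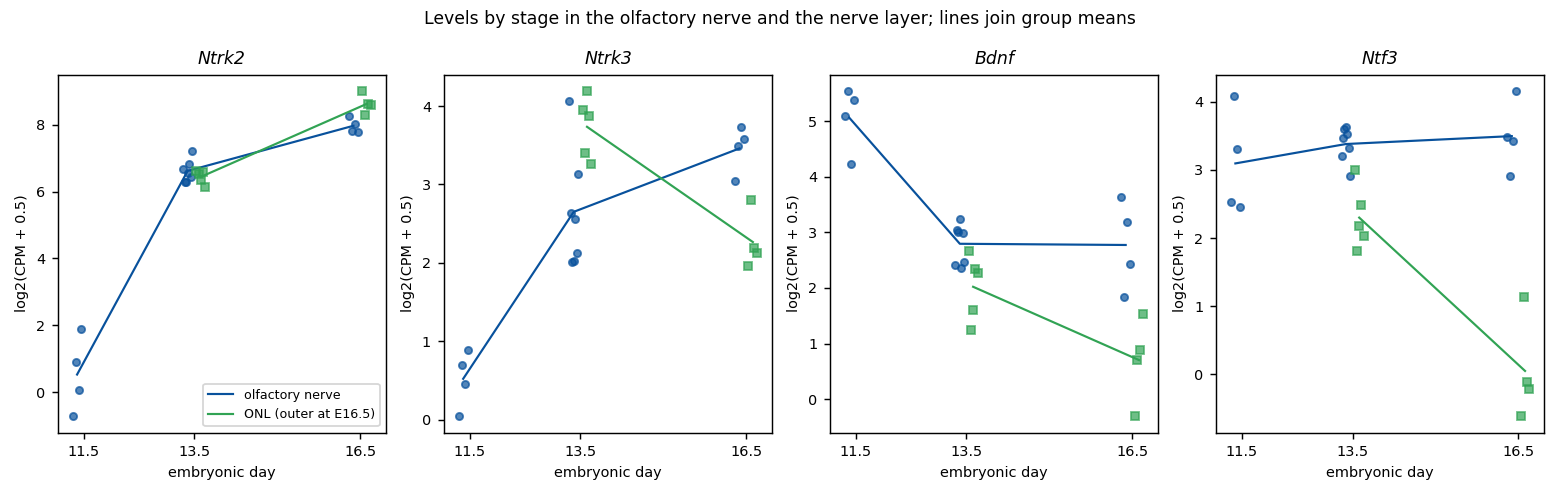
Levels of Ntrk2, Ntrk3, Bdnf and Ntf3 (log2(CPM + 0.5)) against embryonic day, with circles for olfactory nerve libraries, squares for ONL libraries (outer ONL at E16.5) and lines through the group means. Ntrk2 is higher at each later stage in both. Ntrk3, Bdnf (with overlapping ranges) and Ntf3 are lower in outer ONL at E16.5 than in ONL at E13.5. None of these was called in the nerve between E13.5 and E16.5.

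Sort1 varied least. Its 31 values ran from 30.8 CPM in an E16.5 olfactory nerve library to 84.1 in an outer ONL library, and its group means from 42.1 ± 8.39 CPM in E16.5 nerve to 71.1 ± 11.6 in outer ONL. The outer ONL libraries held 71.4, 84.1, 56.0 and 72.9 CPM, the E16.5 nerve libraries 30.8, 50.1, 41.2 and 46.4, and the trigeminal libraries 50.3, 41.1 and 46.6. Outer ONL did not overlap either nerve. Sort1 was 1.69-fold higher in outer ONL than in olfactory nerve (0.76 ± 0.16, adjusted p = 0.000571) and 1.55-fold higher than in trigeminal nerve (0.63 ± 0.17, adjusted p = 0.00588), the latter lost without trigeminal replicate 2 (0.56, adjusted p = 0.05003). Outer ONL and E13.5 ONL (52.4 to 62.8 CPM) differed by 0.32 ± 0.15 (adjusted p = 0.0778), or by 0.72 by label (adjusted p = 0.000330), and without outer ONL replicate 3 the first passed (0.42, adjusted p = 0.0307). The early levels by label are 58.0 ± 4.52, 49.0 ± 6.21 and 43.3 ± 4.76 CPM in E11.5 nerve, E13.5 nerve and E13.5 ONL. No neighbouring pair in the order of means differed (adjusted p from 0.0778 to 0.886).

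Bdnf was the ligand gene with the largest change over time in the nerve. The E11.5 nerve libraries held 33.5, 46.4, 18.4 and 41.3 CPM. The E13.5 nerve libraries ran from 4.67 to 9.01 CPM with a median of 7.48, and the E16.5 nerve libraries held 12.005, 3.09, 8.58 and 4.87. Every E11.5 library lay above every later one of the series. Bdnf fell 5.27-fold from E11.5 to E13.5 nerve (-2.40 ± 0.39, adjusted p = 1.44e-05) and moved by 0.11 ± 0.40 from E13.5 to E16.5 nerve (adjusted p = 0.871). By label these are 0.86 (adjusted p = 0.277) and 0.13 (adjusted p = 0.871), with 3.70 ± 1.82, 6.52 ± 1.87 and 28.9 ± 17.0 CPM in E11.5 nerve, E13.5 nerve and E13.5 ONL. Genes of olfactory sensory neurons (Omp, Gap43, Gng8, Gnal) summed to 1043 to 1556 CPM in E11.5 nerve and 336 to 482 in E13.5 nerve. The lower sum came from Gap43, a gene of growing axons, whose mean went from 1197 to 321 CPM, while Omp (1.07 to 7.96) and Gnal (5.24 to 12.1) were higher at E13.5 and Gng8 stood at 68.1 and 70.1. The part of Gap43 in the fall of Bdnf was not tested.

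In the ONL Bdnf was low. The 5 E13.5 ONL libraries held 5.81, 1.87, 2.54, 4.57 and 4.30 CPM, the 4 outer ONL libraries 0.307, 1.13, 1.35 and 2.38 and the inner ONL libraries 0.740, 3.01, 0.628 and 1.57, down to 4 counts in a library. Outer ONL lay below E16.5 nerve without overlap, by 5.43-fold (-2.44 ± 0.49, adjusted p = 0.000443), and below E13.5 ONL by 2.82-fold with overlap (-1.49 ± 0.48, adjusted p = 0.0129). The latter is -4.47 by label (adjusted p = 2.66e-06) and was lost without outer ONL replicate 1 (-1.18, adjusted p = 0.0561). The trigeminal libraries held 2.06, 4.04 and 3.23 CPM and differed from neither outer ONL (-1.24 ± 0.51, adjusted p = 0.0736) nor olfactory nerve (1.196 ± 0.50, adjusted p = 0.0843) in edgeR's test. In DESeq2 both passed, at adjusted p of 0.0488 and 0.0463, and in edgeR the first passed without outer ONL replicate 4 (-1.72, adjusted p = 0.0255) and the second without olfactory nerve replicate 2 (1.45, adjusted p = 0.0395) and with scaling by total count (1.43, adjusted p = 0.0412). E13.5 ONL and nerve differed by -0.84 ± 0.40 (adjusted p = 0.113), by -0.82 in a fit of the 2 alone (adjusted p = 0.0409), or by 2.16 by label (adjusted p = 0.00248). The change of the ONL to nerve difference between stages was -1.60 ± 0.62 (adjusted p = 0.0916), or -4.60 by label (adjusted p = 0.000145). It passed in DESeq2 (-1.69, adjusted p = 0.0405) and without olfactory nerve replicate 2 or outer ONL replicate 4 (adjusted p = 0.0447 and 0.0344).

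Ntf3 was lowest in outer ONL. The outer ONL libraries held 0.153, 1.70, 0.427 and 0.366 CPM, from 2 to 27 counts, against 10.6, 7.05, 10.3 and 17.4 CPM in E16.5 olfactory nerve, 7.79, 7.11 and 5.88 in trigeminal nerve and 0.404, 6.85, 2.83 and 3.797 in inner ONL. Outer ONL overlapped only the inner ONL, through inner ONL replicate 1. Ntf3 was 16.7-fold lower in outer ONL than in olfactory nerve (-4.06 ± 0.59, adjusted p = 5.27e-06) and 10.2-fold lower than in trigeminal nerve (-3.35 ± 0.60, adjusted p = 7.14e-05). Inner ONL was 5.10-fold above outer ONL (2.35 ± 0.58, adjusted p = 0.00460), a call lost without inner ONL replicate 2 (1.77, adjusted p = 0.0508) and in a fit of the 2 groups alone (2.36, adjusted p = 0.0556). Genes of olfactory bulb neurons summed to 383 to 793 CPM in inner ONL and 6.52 to 141 in outer ONL. The same list summed to 81.9 to 187 in E16.5 nerve and 183 to 211 in trigeminal nerve. Tbr1 alone ran from 15.8 to 43.0 in inner ONL, 0.614 to 7.22 in outer ONL and 0.0361 to 0.288 in trigeminal nerve. Neurod6 had no count in trigeminal nerve, so other genes of the list made up its sum. Progenitor genes of the olfactory epithelium (Neurog1, Fezf1, Neurod1) summed to 58.2 to 234 in E16.5 nerve, 1.15 to 8.29 in outer ONL and 0 to 0.974 in trigeminal nerve. The part of these lists in the Ntf3 differences was not tested.

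In the nerve Ntf3 stayed near one level, with 5.30, 16.52, 9.38 and 4.98 CPM at E11.5, 7.05 to 11.8 with a median of 10.6 at E13.5, and the E16.5 values above; neither step passed (adjusted p = 0.822 and 0.803), nor did they by label (adjusted p = 0.197 and 0.744). The E13.5 ONL libraries held 7.47, 3.02, 4.03, 5.09 and 3.58 CPM, 2.23-fold below E13.5 nerve with overlap (-1.16 ± 0.44, adjusted p = 0.0429). That call was lost without any 1 of 9 of the 12 libraries, replicates 2 to 4 of the E11.5 nerve label and replicates 1 and 3 to 7 of the E13.5 nerve label (adjusted p from 0.0536 to 0.109). From E13.5 ONL to outer ONL Ntf3 fell 6.62-fold (-2.73 ± 0.57, adjusted p = 0.000267), without overlap. The ONL to nerve difference changed by -2.90 ± 0.71 (adjusted p = 0.00521). By label the last 3 values are -0.14 (adjusted p = 0.860), -3.68 (adjusted p = 3.51e-05) and -3.93 (adjusted p = 0.000815), and the levels by label are 4.90 ± 1.91, 9.55 ± 2.86 and 8.64 ± 4.74 CPM in E11.5 nerve, E13.5 nerve and E13.5 ONL. In the order of group means, E13.5 ONL stood next above inner ONL at E16.5 (4.64 and 3.47 CPM), with overlapping ranges. They differed by 0.38 ± 0.50 (adjusted p = 0.600), so the fall was called for the outer part only.

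Ntf5 was low in every group. Group means ran from 0.116 CPM in inner ONL, where 1 library had no count, to 1.47 in E13.5 nerve, and no library had more than 59 counts or 3.08 CPM. It was called in 0 of the 9 comparisons by edgeR, where 3 of the 9 had an unadjusted p under 0.05, and in 0 by DESeq2. It passed in a fit of E13.5 ONL and nerve alone (-1.32, adjusted p = 0.0450), and from E11.5 to E13.5 nerve without the library labelled E13.5 ONL replicate 3 (2.83, adjusted p = 0.00219). By label the early levels were 0.606, 1.34 and 0.745 CPM in E11.5 nerve, E13.5 nerve and E13.5 ONL.

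**Figure D4:**
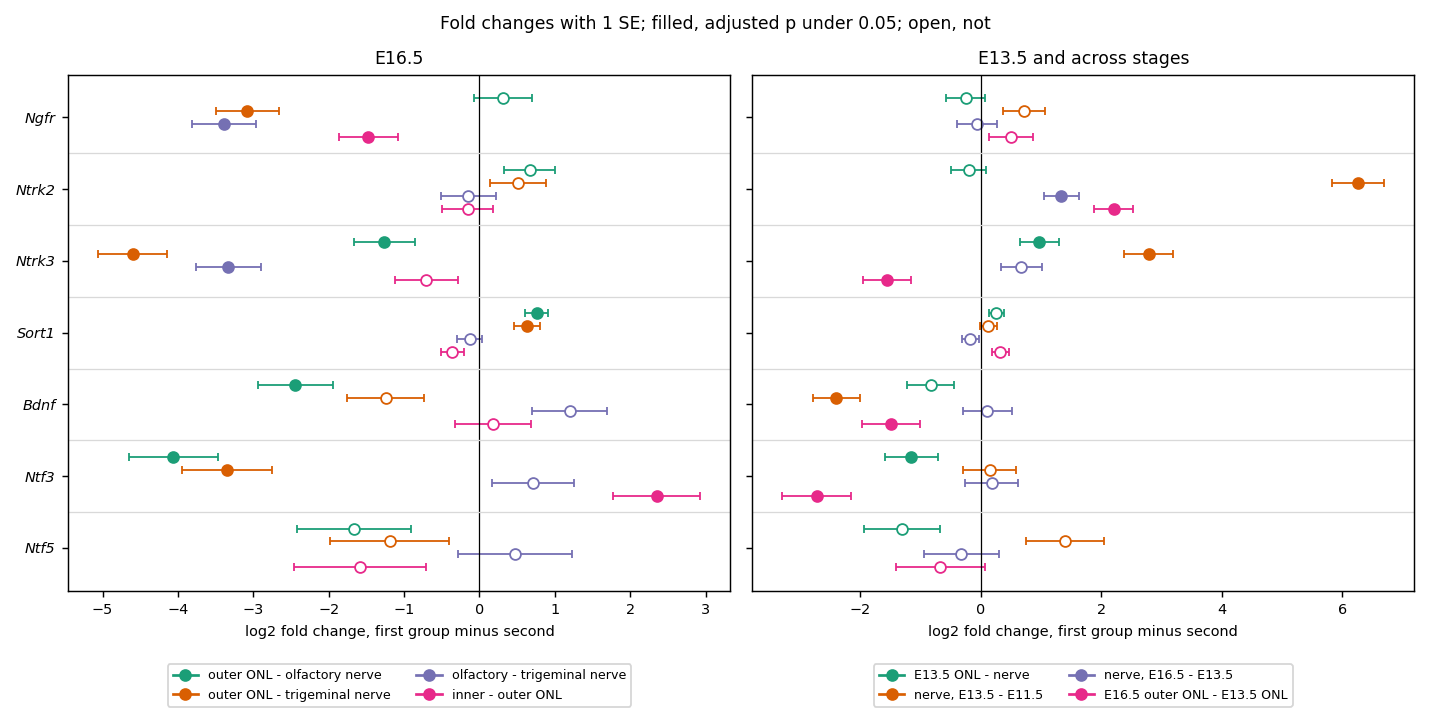
Log2 fold change of each gene in the 8 pairwise comparisons, first group minus second, with bars of 1 SE; filled points have an adjusted p under 0.05. In the E16.5 comparisons Ngfr and Ntrk3 lie far below 0 against the trigeminal nerve, and across stages Ntrk2 has the largest change, 6.27 from E11.5 to E13.5 nerve.

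Counted over the 7 genes, outer ONL differed from E16.5 olfactory nerve in 4, where 22% of all genes tested were called. Sort1 was higher (as were 10.2% of all genes) and Ntrk3, Bdnf and Ntf3 were lower (11.8%). Outer ONL differed from trigeminal nerve in 4 (25.8% of all genes), with Sort1 higher (13.54%) and Ngfr, Ntrk3 and Ntf3 lower (12.3%). Olfactory nerve differed from trigeminal nerve in 2 (23.6%), with 0 higher (13%) and Ngfr and Ntrk3 lower (10.6%). These comparisons share libraries with each other.

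Inner ONL differed from outer ONL in 2 (14.1%), with Ntf3 higher (8.2%) and Ngfr lower (5.94%). At E13.5 ONL differed from nerve in 2 (31.5%), Ntrk3 higher (15.4%) and Ntf3 lower (16.1%). Nerve at E13.5 differed from nerve at E11.5 in 3 (36.6%), with Ntrk2 and Ntrk3 higher (20.2%) and Bdnf lower (16.4%). Nerve at E16.5 differed from nerve at E13.5 in 1 (28.8%), with Ntrk2 higher (15.2%) and 0 lower (13.6%). Outer ONL differed from E13.5 ONL in 4 (41.9%), with Ntrk2 higher (21.9%) and Ntrk3, Bdnf and Ntf3 lower (20%). By label, 0 of the 7 were called from E11.5 to E13.5 nerve or from E13.5 to E16.5 nerve. The ONL to nerve difference changed between stages in 2, where 12.3% of all genes were called, with 0 upward (5.59%) and Ntrk3 and Ntf3 downward (6.75%). With so few genes these shares describe the set only. The median log2 fold change of the 7 ran from -1.26, in outer ONL against olfactory nerve, to 0.71, from E11.5 to E13.5 nerve, where the medians of all genes were 0.01 and 0.05.

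Compared with each other per kilobase of merged exon, the genes stood in different orders in the groups. In trigeminal nerve Ngfr was highest at 32.2 ± 3.74 CPM per kb, ahead of Ntrk2 at 14.5 ± 1.996, Sort1 at 6.08 ± 0.61, Ntf3 at 4.04 ± 0.56 and Ntrk3 at 3.57 ± 0.25. In outer ONL Ntrk2 was highest at 20.7 ± 4.41 CPM per kb, ahead of Sort1 at 9.39 ± 1.53 and Ngfr at 3.82 ± 1.12, and the other 4 lay between 0.140 and 0.385. In E16.5 olfactory nerve Ntrk2 stood at 13.1 ± 2.04 CPM per kb, Ntf3 at 6.62 ± 2.53 and Sort1 at 5.56 ± 1.11. In E11.5 nerve Sort1 (5.76 ± 0.72 CPM per kb), Bdnf (5.61 ± 1.96) and Ntf3 (5.28 ± 3.13) lay within each other's spread, and Ntrk2 and Ntrk3 stood at 0.0670 and 0.0321. By label the 5 genes of E11.5 nerve stand at 7.66 ± 0.60, 0.595 ± 0.29, 2.86 ± 1.11, 4.72 and 0.472 in the same order. Merged exons run from 1.714 kb in Ntf3 to 30.17 kb in Ntrk3, and where only a short form of a gene is made this scale understates its level.

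Across the 31 libraries, Ngfr and Ntrk3 had r = 0.74 and Ntrk2 and Bdnf r = -0.81 (Pearson, log2 CPM). Among 10711 genes with a mean of at least 10 CPM, the gene most like Ntrk2 was Fmo1 (r = 0.96), followed by Rgs5, a mural cell gene (0.96), and Thbs2 (0.95). Those most like Ngfr were Dlk1 (0.89), Timp1, an inhibitor of metalloproteinases (0.88), and Prss12 (0.87), and those most like Ntrk3 were Lrrc8b (0.87), the laminin receptor subunit Itga6 (0.86) and Sgk1 (0.86). Bdnf was most like Arid3b (0.89), Ntf3 most like Ebf3 (0.86), Ntf5 most like Otulinl (0.79) and Sort1 most like Zranb1 (0.78). Libraries of a group share tissue and stage, so these values describe group patterns more than single libraries.

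A list of 40 further genes of the pathway was read in the same fit, of which 37 passed the filter: relatives of sortilin, partners and effectors of p75, Trk adaptors, and enzymes that process proneurotrophins. In outer ONL against olfactory nerve 3 were higher and 7 lower (27.03% of the 37, against 22% of all genes). Against trigeminal nerve 3 were higher and 10 lower (35.1% against 25.8%). With the early libraries grouped by label these shares were 16.2% against 16.1% and 24.3% against 20.3%. Pcsk6, a convertase that can cleave proneurotrophins, was 5.66-fold lower in outer ONL than in olfactory nerve (-2.50, adjusted p = 0.000100). Tnfrsf19, a relative of p75 that can join the Nogo receptor complex, went the other way and was 6.43-fold higher in outer ONL than in olfactory nerve (2.68, adjusted p = 9.86e-06) and 22.1-fold higher than in trigeminal nerve (4.46, adjusted p = 4.48e-08), with means of 587 ± 204, 91.4 ± 42.5 and 26.6 ± 0.76 CPM.

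Between olfactory and trigeminal nerve 5 of the 37 were higher and 9 lower in the olfactory nerve (37.8%, against 23.6% of all genes). Of the sortilin relatives, Sorl1 (2.33, adjusted p = 1.38e-07) and Sorcs3 (3.55, adjusted p = 0.00210) were higher. Sorcs1 (-1.41, adjusted p = 0.00251) and Sorcs2 (-1.15, adjusted p = 0.00415) were lower. The trigeminal libraries held only 2 to 12 counts of Sorcs3. Inner against outer ONL gave 5 higher and 3 lower (21.6% against 14.1%). The Nogo receptor partners of p75 Lingo1 (2.65, adjusted p = 5.29e-06) and Rtn4r (3.03, adjusted p = 0.00597) were higher in the inner part. There the sum of bulb neuron genes was also higher. Rtn4r was near the floor in outer ONL (0 to 11 counts) and had a mean of 2.15 CPM in inner ONL. E13.5 ONL against nerve gave 14 higher and 6 lower (54.1% against 31.5%). By label it gave 4 and 1, a share below the 17.7% of all genes called by label. At E13.5 against E11.5 nerve 7 were higher and 10 lower (45.9% against 36.6%), or 5 and 7 by label (32.4% against 17.5%). At E16.5 against E13.5 nerve 6 were higher and 6 lower (32.4% against 28.8%), or 5 and 6 by label (29.7% against 25.1%). In outer ONL 8 were higher and 16 lower than in E13.5 ONL (64.9% against 41.9%), or 6 and 11 by label (45.9% against 35.2%). The ONL to nerve difference changed in 2 upward and 8 downward (27.03% against 12.3%), or in 2 and 4 by label (16.2% against 12.5%). By label, olfactory against trigeminal nerve gave 24.3% against 17.8%, and inner against outer ONL 18.9% against 8.58%. The list was chosen with results known and these shares were not compared by a test.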

How the data were processed

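RNA was extracted from laser-microdissected nerve pieces, amplified with a SMART-seq kit and made into paired-end Nextera XT libraries. Per the submitters' notes and the study's methods, the authors aligned reads to mm10 (Ensembl GRCm38 annotation) with TopHat2 (version 2.1.0) and counted them per gene with HTSeq. The deposited table holds unnormalised read counts for 31 libraries. It has 1 blank line, which was left out. Symbols were matched by Ensembl identifier (47224 of 47729 genes), and exon lengths came from GENCODE M21.

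The 7 genes, the marker lists and the pathway list were chosen with earlier results of these data known. Some genes of the marker and pathway lists are not reported here and were left out of their sums and counts. Genes were kept by filterByExpr (19332) and fitted with edgeR 4.0.16 (R 4.3.3) in 1 quasi-likelihood model with a coefficient for each of the 7 groups, after TMM scaling (factors 0.854 to 1.14). The test compares counts and adjusts p-values over all genes. It was tried on simulated data with the same relative spread for every gene and independent libraries. That trial does not cover spread that differs between genes or libraries that share an embryo. Text names the 7 genes, up to 3 genes most like each of them by Pearson's r, and genes of the pathway list. DESeq2 1.42.0, other scalings and filters, grouping by label, leaving out libraries and a replicate block were alternatives. For E16.5 outer ONL and olfactory nerve, deviations from the group means over all genes tested were compared between libraries. Same-numbered pairs had correlations of 0.158 to 0.347 (4 pairs), and pairs with different numbers of -0.280 to 0.270. Not every olfactory nerve library correlated best with the outer ONL library of its number. The numbers were taken to pair these libraries, which the correlations alone do not settle. In the other 3 comparisons at E16.5 the correlations of same-numbered pairs ran from -0.207 to 0.221. Within groups, the most similar pair of libraries differed by 8.11 times the counting variance per gene, so none was taken as a duplicate.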

Additional observations from a re-analysis of the deposited data

Results flagged for a closer look

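Among 42 sets of libraries (7 genes in the 6 groups of 4 or more), 2 held a library far from the others by Dixon's test, which chance alone does in about 1 of 20 sets. Ngfr stood at 15.6 CPM in E16.5 olfactory nerve replicate 2, where the other 3 libraries held 8.69 to 9.34. Sox10 stood at 179.8 CPM in the same library and at 97.5 to 122 in the others, and the ratio of Ngfr to Sox10 of the 4 libraries ran from -3.72 to -3.32. Ntrk3 stood at 16.2 CPM in the library labelled E13.5 olfactory nerve replicate 2, where the other 6 of the group held 3.53 to 8.29. Without it the E13.5 difference between ONL and nerve was 1.38 instead of 0.97.

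With the ONL at E16.5 taken as its outer part, nerve and ONL changed differently from E13.5 to E16.5 in 2 of the 7 genes. The interaction term of edgeR's quasi-likelihood test was -2.23 for Ntrk3 (adjusted p = 0.00362) and -2.90 for Ntf3 (adjusted p = 0.00521). In both the outer ONL was lower at E16.5 than the ONL at E13.5, in 4 of 4 outer ONL libraries against every E13.5 ONL library, while the nerve groups overlapped. By label the 2 values are 0.32 (adjusted p = 0.838) and -3.93 (adjusted p = 0.000815). The inner ONL at E16.5 is not part of this term. For Ntrk3 its libraries (0.874 to 4.16 CPM) also lay below every E13.5 ONL library (9.10 to 17.8). For Ntf3 inner ONL and E13.5 ONL overlapped and were not called different by edgeR's test (adjusted p = 0.600). Bulb neuron genes summed to 785 to 1091 CPM in E13.5 ONL and 6.52 to 141 in outer ONL, and their part was not tested.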

How the results depend on the processing

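Calls depended most on the grouping of the early libraries. Grouped by label, 0 genes of the set were called from E11.5 to E13.5 nerve and 0 from E13.5 to E16.5 nerve, and 3380, 3421 and 1658 of all genes were called from E11.5 to E13.5 nerve, between E13.5 ONL and nerve, and between inner and outer ONL (7071, 6087 and 2733 before). By label, directions turned for Ntrk3 (-1.58) and Bdnf (2.16) between E13.5 ONL and nerve, for Ntrk2 (-0.036), Ntrk3 (-1.06) and Bdnf (0.86) from E11.5 to E13.5 nerve, and for Ntrk3 from E13.5 ONL to outer ONL (0.96) and in the interaction (0.32). The call counts for the set moved to 1 between E13.5 ONL and nerve with the stricter filter (a mean of at least 10 CPM in some group), where Ntf3 no longer passed (adjusted p = 0.0508), and with the compared groups alone to 4 there, adding Bdnf and Ntf5, and to 1 between inner and outer ONL. With a replicate block, 3283 genes were called between outer ONL and trigeminal nerve instead of 4989 and Sort1 was not (adjusted p = 0.0979). Pieces of both came from shared sections, but no label ties the numbers to embryos, not every same-numbered pair deviated together, and the block leaves out the fourth outer ONL library. Between outer ONL and olfactory nerve the replicate block called 5 of the 7 instead of 4, adding Ntrk2, and changed no other call. Leaving out single libraries, the set's calls ran from 0 to 2 between E13.5 ONL and nerve, 1 to 2 from E13.5 to E16.5 nerve and 1 to 2 between inner and outer ONL. The Ngfr to Sox10 differences then ran from -2.03 to -1.79 (olfactory against trigeminal nerve) and -4.23 to -3.89 (outer ONL against trigeminal nerve), where the adjusted p of 0.0667 to 0.1 follows from fewer libraries. Scaling by total count moved the median of all genes to -0.13 (outer ONL against olfactory nerve), 0.13 (outer ONL against trigeminal nerve), 0.24 (olfactory against trigeminal nerve) and -0.10 (E13.5 ONL against nerve), and the share of calls that were higher in the first group from 46.4% to 34.1%, 52.5% to 62.7% and 55.1% to 77.5% in the first 3. With upper quartile scaling the share in the third was 65.5%. Of 289 values of single genes under other settings 266 kept direction and side of the threshold, as did 318 of 343 without 1 library. Causes were not tested. Low counts limit the precision of Ntf5 and, in outer ONL, of Ntf3, Bdnf and Rtn4r, as well as of Sorcs3 in trigeminal nerve.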
